A study of Mus musculus with 9 samples.

Results

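The genes described here are 37 genes that are known to be active mainly in the endothelium, the cell layer that lines blood and lymphatic vessels. They were taken by symbol from a table of 54532 genes, and all 37 were found there as protein-coding genes at the coordinates that GENCODE vM21 gives on mouse build GRCm38 (mm10). The list was drawn up from knowledge of the genes, not from their values, but with other results of these data in view. It holds 8 junction and surface proteins, 5 growth factor and BMP receptors, 8 guidance, apelin and secreted factors, 5 transcription factors, 4 arterial and Notch genes, 4 lymphatic genes and 3 genes of venules, the small veins through which leukocytes leave the blood.

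Whole skin of wild-type mice was profiled by mRNA sequencing in 9 libraries, 3 in each of 3 groups. The control group was healthy wild-type mice, the bleomycin group received bleomycin, and the nitrate group received bleomycin together with a nitrate therapy that the series title calls topical. Bleomycin is a DNA-damaging drug that is used in mice to make the skin fibrotic, as a model of scleroderma. The labels give no dose, route, time, strain, sex or age, and do not say whether replicates are separate mice, so that the spread behind each p-value is that between libraries and may be technical. The control group received no bleomycin and no nitrate, and no group received nitrate alone.

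Endothelial cells hold the vessel wall together with junctions built from VE-cadherin and claudin-5, and they keep vessels stable through the receptor TIE2 and its angiopoietin ligands. VEGF receptors drive the growth of new vessels, Notch and SOX17 mark arteries, and PROX1 and VEGFR3 make and keep lymphatic vessels. In inflamed skin, venules put selectins on their surface to catch passing leukocytes. In scleroderma, loss of small skin vessels is an early feature. In bulk tissue, fewer endothelial cells and less RNA per endothelial cell cannot be told apart, and this holds for every value below.

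Expression was read as FPKM, read fragments scaled by gene length and library size, and 15804050 to 18352592 whole reads per library could be recovered from the table. Differences are on the log2(FPKM + 1) scale, which understates the change of low genes, and a gene was called at a limma p below 0.05 after Benjamini-Hochberg adjustment over 14642 genes, those with 1 FPKM or more in at least 3 libraries. All 37 genes passed this filter, none of them through the libraries of 1 group alone. Skin markers were present, since 9 keratinocyte markers summed to 2993 to 11375 FPKM per library, and 8 skeletal muscle markers summed to 2114 to 19217 FPKM. Libraries of the same group differed widely in their hair follicle genes. The mean log2(FPKM + 1) of 13 genes of growing hair follicles was 0.39, 3.48 and 5.35 in the control libraries, 1.45, 5.07 and 6.35 after bleomycin and 7.14, 5.23 and 7.90 with nitrate. Mitochondrial transcripts made up 6.61 to 8.02% of reads in the control libraries, 3.77 to 4.17% after bleomycin and 2.84 to 4.49% with nitrate.

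Endothelial genes as a group were lower in treated skin than in healthy skin. After bleomycin, 8 of the 37 genes fell and 1 rose against control, where 8.42% of all genes tested were called, 3.68% lower and 4.74% higher. Their median log2 difference was -0.53 against 0.01 over all genes tested, with 32 of 37 estimates below 0 (48.4% of all genes) and 5 above 0 (51.6%). With nitrate added to bleomycin, 16 genes fell and 1 rose against control, where 8.52% of all genes were called, 4.89% lower and 3.63% higher. The median was -0.78 against 0.02 over all genes, with 36 of 37 estimates below 0 (48.1% of all genes) and 1 above 0 (51.9%). Both comparisons use the same 3 control libraries. Between nitrate and bleomycin alone, limma called 0 of the 37 genes and 0.0% of all genes, although 11 of the 37 had an unadjusted p under 0.05. Limma with voom weights also called 0 of the 37 there. The median there was -0.28 against -0.00 over all genes, with 27 estimates below 0 (50.4% of all genes) and 10 above 0 (49.6%). Without overlap between these 2 groups, 7 genes were lower with nitrate (11.8% of all genes) and 1 was higher (9.4%).

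The level of the 37 genes also differed between libraries of the same group. Their mean log2(FPKM + 1) was 3.73, 3.63 and 3.55 in the control libraries, 3.19, 3.22 and 3.12 after bleomycin and 2.96, 3.30 and 2.47 with nitrate. Control libraries were highest, bleomycin libraries lay close together below them, and nitrate libraries were spread on both sides of bleomycin. The third nitrate library held the lowest of the 9 values in 28 of the 37 genes, and the highest in 0. Within a group the ratio of the highest to the lowest library had a median over the 37 genes of 1.20 in control, 1.31 after bleomycin and 2.03 with nitrate. The same count and ratios were not computed over all genes. It is therefore not known whether they are particular to endothelial genes or belong to the libraries as a whole.

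Single libraries moved the counts of calls. After bleomycin, the 8 genes that fell became 3 without bleomycin 1, 4 without bleomycin 2, 2 without bleomycin 3, 3 without control 1, 2 without control 2, 3 without control 3, 5 without nitrate 1 and 16 without nitrate 3. The share of all genes called moved with them, from 8.42% to 3.46%, 4.53% and 3.38% without bleomycin 1, 2 or 3, 3.92%, 2.04% and 3.92% without control 1, 2 or 3, 7.96% without nitrate 1 and 10.2% without nitrate 3. With nitrate against control, the 16 genes that fell became 10 without bleomycin 1 or 2, 0 without control 1 or 2, 6 without control 3, 8 without nitrate 1, 25 without nitrate 2 and 6 without nitrate 3. Here 8.52% of all genes became 6.27% and 5.93% without bleomycin 1 or 2, 0.297% and 0.284% without control 1 or 2, 4.74% without control 3, 3.27% without nitrate 1, 19.8% without nitrate 2 and 1.17% without nitrate 3. Without bleomycin 3 the nitrate calls of Plvap, Flt1, Tek, Tie1, Rasip1 and Erg were lost, and 4.68% of all genes were called. The 3 groups share one estimate of spread, so that a library outside a comparison also moves its count. With no filter on low values the genes that fell after bleomycin were Cldn5, Tek, Sox17 and Gja4, and 0 rose, where 2.1% of all genes were called.

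**Figure D1:**
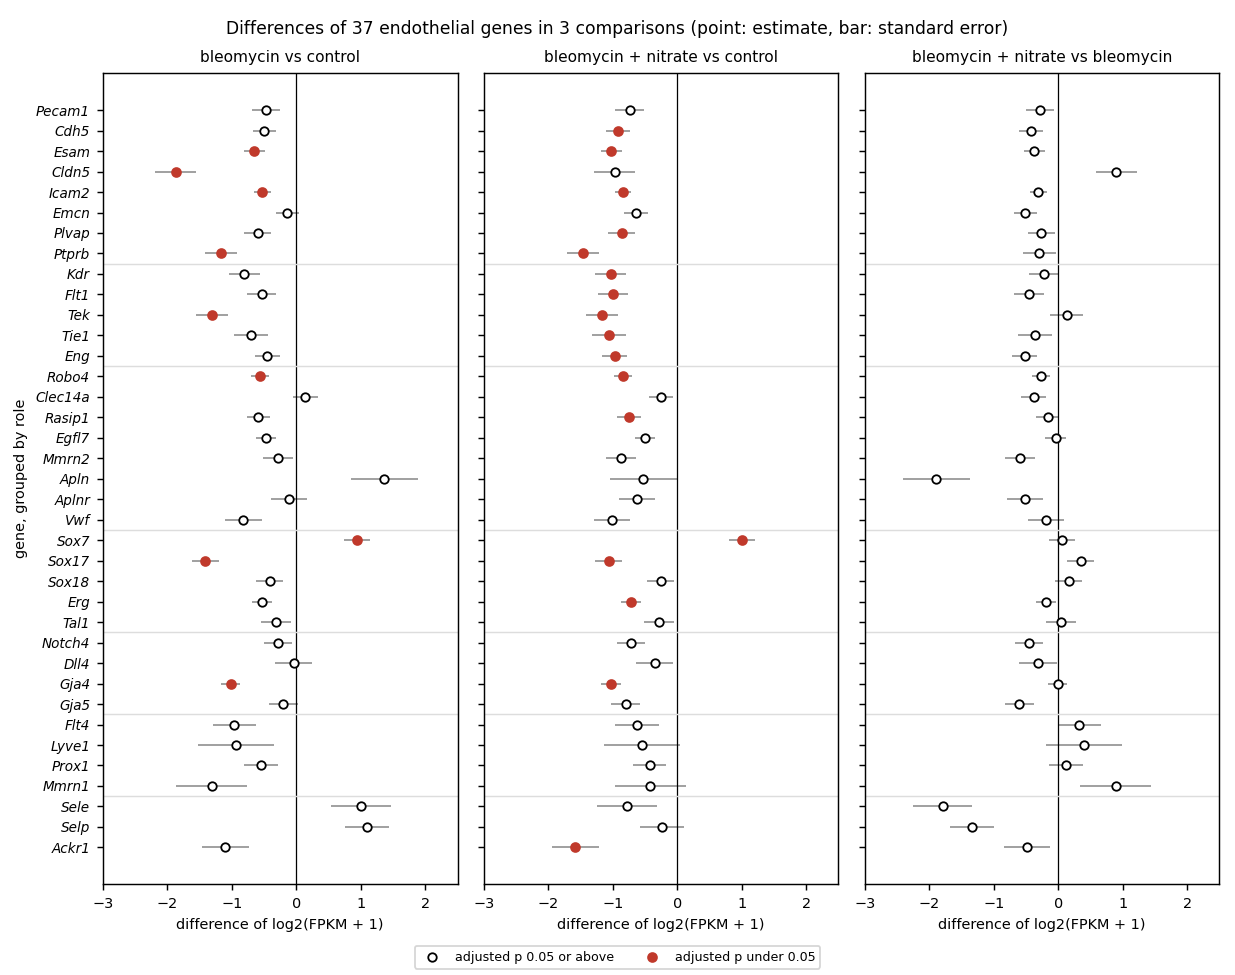
Log2 differences with standard errors (horizontal axis, log2 of FPKM + 1) of the 37 endothelial genes (vertical axis, grouped by role) in the 3 comparisons, with filled points for genes at a limma adjusted p under 0.05. After bleomycin 32 of 37 points lie below 0, with nitrate 36 of 37 lie below 0 against control, and no point is filled for nitrate against bleomycin.

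Genes of junction and surface proteins were lower in both treated groups. After bleomycin 4 of these 8 genes fell (3.68% of all genes), and the median was -0.57. All 8 estimates were below 0 (48.4% of all genes). With nitrate 5 fell against control (4.89% of all genes) and the median was -0.89. Cldn5 (ENSMUSG00000041378, chr16:18776847-18778262) encodes claudin-5, the tight junction protein of endothelium. It stood at 48.7, 51.2 and 42.6 FPKM in the control libraries, 11.5, 13.8 and 11.5 after bleomycin and 17.4, 44.3 and 17.0 with nitrate. All bleomycin libraries lay far below all control libraries. The nitrate libraries lay above the bleomycin libraries, with nitrate 2 inside the control range and the other two closer to bleomycin. Group means were 47.5 ± 4.44, 12.3 ± 1.33 and 26.2 ± 15.6 FPKM in control, bleomycin and nitrate (SD, n = 3). On the log2 scale the difference was -1.87 ± 0.32 (limma adjusted p = 0.0137) after bleomycin, 0.90 ± 0.32 (limma adjusted p = 0.200) for nitrate against bleomycin and -0.97 ± 0.32 (limma adjusted p = 0.0879) for nitrate against control. The bleomycin call was lost without bleomycin 3 (limma adjusted p = 0.0507) or control 2 (limma adjusted p = 0.0624).

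Ptprb (ENSMUSG00000020154, chr10:116275523-116389535), a phosphatase that acts on TIE2 and VE-cadherin, stood at 19.4, 21.6 and 22.3 FPKM in the control libraries, 9.38, 9.43 and 7.66 after bleomycin and 7.19, 10.7 and 4.37 with nitrate. Control values were all above those of both treated groups, which overlapped each other. The difference was -1.17 ± 0.25 (limma adjusted p = 0.0268) after bleomycin and -1.46 ± 0.25 (limma adjusted p = 0.0187) with nitrate against control, on the log2 scale. Esam (ENSMUSG00000001946, chr9:37528078-37538319), an adhesion molecule of endothelial junctions, was at 29.2, 25.3 and 25.9 FPKM in the control libraries, 14.5, 16.8 and 19.0 after bleomycin and 12.7, 15.3 and 10.4 with nitrate. Again no treated library reached the lowest control library. Esam fell in both comparisons with control, with log2 differences of -0.65 ± 0.16 (limma adjusted p = 0.0393) after bleomycin and -1.02 ± 0.16 (limma adjusted p = 0.0149) with nitrate. Icam2 (ENSMUSG00000001029, chr11:106377656-106388075), an adhesion molecule through which leukocytes move along endothelium, was at 6.01, 7.22 and 7.07 FPKM in the control libraries, 4.61, 4.67 and 3.87 after bleomycin and 3.66, 3.70 and 2.70 with nitrate. Here every nitrate library also lay below every bleomycin library. Its log2 difference was -0.53 ± 0.13 (limma adjusted p = 0.0469) after bleomycin, -0.31 ± 0.13 (limma adjusted p = 0.272) for nitrate against bleomycin and -0.84 ± 0.13 (limma adjusted p = 0.0164) for nitrate against control. After bleomycin the calls of Ptprb, Esam and Icam2 were each lost when any single control or bleomycin library was left out, and those of Esam and Icam2 also without nitrate 1. For Icam2 the call was also lost with voom weights (limma adjusted p = 0.0761) and with a pseudocount of 0.1 (limma adjusted p = 0.0557).

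The most abundant of the 37 genes in control skin was Plvap, which builds the diaphragms across the pores of permeable capillaries and venules. Plvap was at 168, 172 and 152 FPKM in the control libraries, 100, 110 and 112 after bleomycin and 93.0, 121 and 64.5 with nitrate. Its groups did not overlap between control and either treated group. Plvap had a log2 difference of -0.60 ± 0.21 (limma adjusted p = 0.114) after bleomycin and -0.86 ± 0.21 (limma adjusted p = 0.0433) with nitrate against control. Cdh5, which encodes VE-cadherin, the adhesion protein of endothelial junctions, was at 51.1, 50.0 and 44.2 FPKM in the control libraries, 38.5, 35.9 and 28.0 after bleomycin and 26.9, 29.6 and 19.7 with nitrate. Cdh5 was not called after bleomycin, with a log2 difference of -0.50 ± 0.18 (limma adjusted p = 0.117), and fell with nitrate against control, with one of -0.92 ± 0.18 (limma adjusted p = 0.0256). Pecam1, the platelet and endothelial adhesion molecule CD31, was at 47.9, 43.6 and 39.4 FPKM in the control libraries, 29.6, 33.3 and 30.9 after bleomycin and 26.9, 35.1 and 17.6 with nitrate. All treated libraries were below all control libraries, but the log2 difference did not pass the threshold at -0.47 ± 0.22 (limma adjusted p = 0.214) after bleomycin and -0.74 ± 0.22 (limma adjusted p = 0.0667) with nitrate. Emcn, the sialomucin endomucin of capillaries and veins, was at 5.34, 5.55 and 3.88 FPKM in the control libraries, 5.45, 3.93 and 3.82 after bleomycin and 2.58, 3.42 and 2.37 with nitrate. Its bleomycin and control libraries overlapped, and all nitrate libraries lay below both groups. For Emcn the log2 difference was -0.51 ± 0.18 (limma adjusted p = 0.193) for nitrate against bleomycin and -0.64 ± 0.18 (limma adjusted p = 0.0579) against control, and neither passed.

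**Figure D2:**
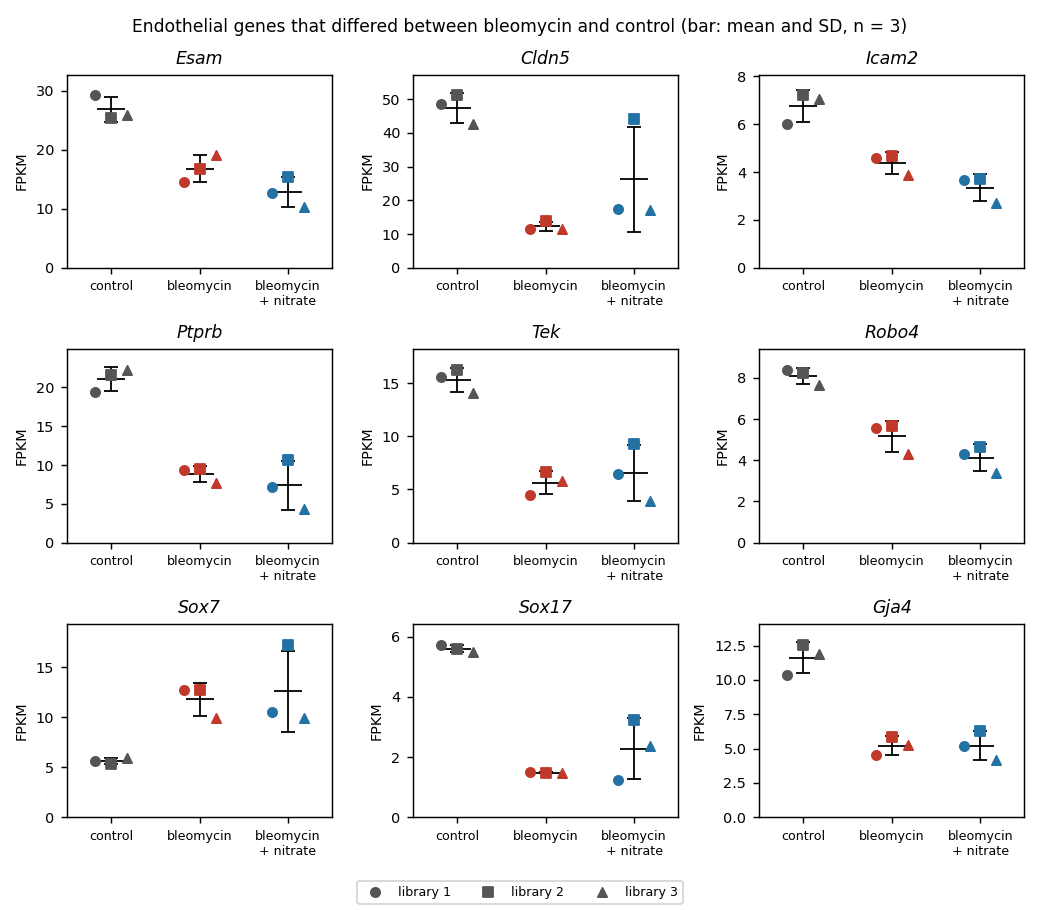
FPKM per library (vertical axes) of the 9 endothelial genes called after bleomycin, by group (horizontal axes), with points for the 3 libraries and bars for the group mean and SD. Sox7 rises from a control mean of 5.64 to a bleomycin mean of 11.8 FPKM, while Cldn5 goes from 47.5 to 12.3 FPKM and Sox17 from 5.60 to 1.48 FPKM.

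Receptors of vessel growth and stability had lower levels in both treated groups. All 5 had estimates below 0 in both comparisons with control, and in both comparisons the treated libraries of all 5 lay below the control libraries (17.3% of all genes after bleomycin, 17.5% with nitrate). Limma called 1 of the 5 lower after bleomycin (3.68% of all genes) and all 5 lower with nitrate against control (4.89% of all genes). Tek (ENSMUSG00000006386, chr4:94739289-94874976), which encodes the angiopoietin receptor TIE2, was at 15.6, 16.3 and 14.1 FPKM in the control libraries, 4.49, 6.65 and 5.79 after bleomycin and 6.50, 9.24 and 3.90 with nitrate. The highest treated library was well below the lowest control library. Tek fell in both comparisons with control, with log2 differences of -1.31 ± 0.25 (limma adjusted p = 0.0189) after bleomycin and -1.17 ± 0.25 (limma adjusted p = 0.0316) with nitrate. Between nitrate and bleomycin the log2 difference was 0.13 ± 0.25 (limma adjusted p = 0.821). Its bleomycin call was lost without any single control library or without bleomycin 1 or 3, at limma adjusted p of 0.0511 to 0.0786.

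Kdr, the main signalling receptor of VEGF (VEGFR2), was at 12.1, 14.2 and 11.1 FPKM in the control libraries, 7.49, 8.49 and 4.62 after bleomycin and 5.45, 7.51 and 4.18 with nitrate. Flt1, a VEGF receptor that also acts as a decoy (VEGFR1), was at 8.16, 9.53 and 8.71 FPKM in the control libraries, 5.98, 6.39 and 4.85 after bleomycin and 4.27, 5.68 and 2.34 with nitrate. In both, control libraries were highest, and nitrate libraries overlapped bleomycin libraries. Kdr had a log2 difference of -0.81 ± 0.24 (limma adjusted p = 0.0727) after bleomycin and -1.03 ± 0.24 (limma adjusted p = 0.0375) with nitrate. For Flt1 the log2 difference was -0.54 ± 0.23 (limma adjusted p = 0.175) after bleomycin and -1.0 ± 0.23 (limma adjusted p = 0.0382) with nitrate. Tie1, the orphan receptor that pairs with TIE2, was at 24.3, 24.3 and 19.8 FPKM in the control libraries, 13.8, 14.6 and 12.4 after bleomycin and 12.7, 14.0 and 6.10 with nitrate. The lowest value, in nitrate 3, was well under the other 5 treated libraries. Its log2 difference was -0.70 ± 0.26 (limma adjusted p = 0.129) after bleomycin and -1.06 ± 0.26 (limma adjusted p = 0.0437) with nitrate. Eng, the co-receptor endoglin through which BMP9 acts on endothelium, was at 56.5, 50.3 and 49.7 FPKM in the control libraries, 37.1, 40.2 and 36.7 after bleomycin and 30.1, 31.7 and 18.6 with nitrate. All nitrate libraries were below all bleomycin libraries, which were below all controls. For Eng the log2 difference was -0.45 ± 0.19 (limma adjusted p = 0.173) after bleomycin, -0.52 ± 0.19 (limma adjusted p = 0.203) for nitrate against bleomycin and -0.97 ± 0.19 (limma adjusted p = 0.0263) for nitrate against control.

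The 5 nitrate calls in this group were among those lost without control 1 or without control 2. With the hair follicle mean of each library as a covariate, 0 of the 37 genes were called in nitrate against control, and 0.0615% of all genes. The hair follicle mean was higher in every nitrate library than in 2 of the 3 controls, so that it moved with the group.

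Of the guidance, apelin and secreted factors, only Robo4 and Rasip1 were called. After bleomycin 1 of these 8 genes fell (12.5%, against 3.68% of all genes), with 6 estimates below 0 and a median of -0.37. With nitrate 2 fell against control (25%, against 4.89% of all genes). Robo4 (ENSMUSG00000032125, chr9:37401897-37415115), a roundabout receptor of endothelium that stabilises vessels, was at 8.39, 8.24 and 7.67 FPKM in the control libraries, 5.57, 5.65 and 4.29 after bleomycin and 4.33, 4.65 and 3.40 with nitrate. Every treated library was below every control library. Robo4 fell in both comparisons with control, with log2 differences of -0.57 ± 0.14 (limma adjusted p = 0.0391) after bleomycin and -0.84 ± 0.14 (limma adjusted p = 0.0171) with nitrate against control, and the bleomycin call was lost without any single control or bleomycin library or without nitrate 1. Rasip1, a RAS-binding protein needed for vessels to form a lumen, was at 11.8, 10.7 and 9.16 FPKM in the control libraries, 7.16, 5.88 and 6.94 after bleomycin and 4.73, 7.89 and 5.24 with nitrate. It had a log2 difference of -0.59 ± 0.18 (limma adjusted p = 0.0783) after bleomycin and -0.75 ± 0.18 (limma adjusted p = 0.0394) with nitrate. Of its exonic bases 20.4% are shared with Izumo1 on the same strand, which was at most 0.685 FPKM in any library.

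Vwf, the clotting factor that endothelium stores and releases, was at 19.6, 20.1 and 20.0 FPKM in the control libraries, 10.7, 10.9 and 10.9 after bleomycin and 12.3, 12.9 and 5.03 with nitrate. The control libraries lay close together, as did the bleomycin libraries, and these 2 groups did not overlap. Nitrate libraries lay on both sides of bleomycin and below control. For Vwf the log2 difference was -0.82 ± 0.28 (limma adjusted p = 0.110) after bleomycin and -1.01 ± 0.28 (limma adjusted p = 0.0595) with nitrate, and neither passed the threshold under the shared estimate of spread. The extracellular protein gene Mmrn2 was at 26.4, 24.6 and 24.8 FPKM in the control libraries, 23.3, 20.8 and 18.2 after bleomycin and 16.7, 16.6 and 8.49 with nitrate, with nitrate libraries all below the others. Clec14a, a lectin that binds multimerin-2, was at 5.07, 4.27 and 4.23 FPKM in the control libraries, 5.62, 4.65 and 4.92 after bleomycin and 4.06, 4.82 and 2.38 with nitrate. In Clec14a the groups overlapped in every comparison. Neither gene passed in any comparison, with log2 differences against control of -0.28 ± 0.23 (limma adjusted p = 0.472) and -0.87 ± 0.23 (limma adjusted p = 0.0532) for Mmrn2 and of 0.14 ± 0.19 (limma adjusted p = 0.690) and -0.25 ± 0.19 (limma adjusted p = 0.407) for Clec14a, after bleomycin and with nitrate. Egfl7, a secreted endothelial protein, was at 12.0, 9.85 and 10.4 FPKM in the control libraries, 8.17, 6.93 and 7.41 after bleomycin and 5.57, 9.02 and 7.60 with nitrate. It was lower in all treated libraries than in all controls, with log2 differences of -0.47 ± 0.16 (limma adjusted p = 0.114) after bleomycin and -0.50 ± 0.16 (limma adjusted p = 0.0820) with nitrate.

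Apelin and its receptor did not share a pattern. Apln, the secreted peptide apelin, was at 7.77, 2.04 and 2.70 FPKM in the control libraries, 23.6, 8.01 and 6.55 after bleomycin and 3.37, 1.35 and 2.17 with nitrate. Its spread within control and within bleomycin was wide, with control 1 and bleomycin 1 far above the rest of their groups, and all bleomycin libraries were above all nitrate libraries. Apln had a log2 difference of 1.36 ± 0.52 (limma adjusted p = 0.143) after bleomycin and -1.89 ± 0.52 (limma adjusted p = 0.139) for nitrate against bleomycin, and neither passed. Aplnr, its receptor, was at 19.8, 20.1 and 17.4 FPKM in the control libraries, 15.9, 22.3 and 15.1 after bleomycin and 19.8, 10.1 and 8.51 with nitrate and its groups overlapped. For Aplnr it was -0.12 ± 0.28 (limma adjusted p = 0.821) after bleomycin and -0.51 ± 0.28 (limma adjusted p = 0.380) for nitrate against bleomycin.

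Among the transcription factors, Sox7 of the SOXF family rose, Sox17 fell and Sox18 did not pass the test. Sox7 (ENSMUSG00000063060, chr14:63943673-63950732) was at 5.67, 5.30 and 5.95 FPKM in the control libraries, 12.7, 12.8 and 9.92 after bleomycin and 10.6, 17.3 and 9.97 with nitrate. Sox7 was the only one of the 37 genes that limma called higher in either comparison with control, and every treated library was above every control library. Its group means were 5.64 ± 0.324, 11.8 ± 1.62 and 12.6 ± 4.04 FPKM in control, bleomycin and nitrate (SD, n = 3). The log2 difference was 0.94 ± 0.20 (limma adjusted p = 0.0259) after bleomycin, 0.06 ± 0.20 (limma adjusted p = 0.909) for nitrate against bleomycin and 1.0 ± 0.20 (limma adjusted p = 0.0265) for nitrate against control. After bleomycin its call was lost without any single control library or without bleomycin 1 or 2, at limma adjusted p of 0.0648 to 0.0990. Sox17 (ENSMUSG00000025902, chr1:4490931-4497354), the family member of arterial endothelium, went the other way at 5.73, 5.57 and 5.50 FPKM in the control libraries, 1.52, 1.48 and 1.46 after bleomycin and 1.22, 3.24 and 2.38 with nitrate. Its bleomycin libraries lay within 1.46 to 1.52 FPKM, and the nitrate libraries were spread from just under that level towards control. Group means were 5.60 ± 0.119, 1.48 ± 0.0287 and 2.28 ± 1.01 FPKM (SD, n = 3). Sox17 fell with a log2 difference of -1.41 ± 0.21 (limma adjusted p = 0.00886) after bleomycin and -1.06 ± 0.21 (limma adjusted p = 0.0267) with nitrate against control. The bleomycin call held without any single library, at limma adjusted p of 0.00352 to 0.0406. It was lost at 0.0852 without both control 1 and bleomycin 1, the 2 libraries with the lowest hair follicle level. Of the exonic bases of Sox17, 16.8% are shared with a transcript on the opposite strand that was at most 0.0989 FPKM. Sox18, which also starts the lymphatic programme, was at 26.9, 21.8 and 25.5 FPKM in the control libraries, 25.0, 16.7 and 14.4 after bleomycin and 18.3, 25.7 and 18.1 with nitrate and its groups overlapped. The log2 difference of Sox18 was -0.41 ± 0.21 (limma adjusted p = 0.258) after bleomycin and -0.26 ± 0.21 (limma adjusted p = 0.434) with nitrate.

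Erg, the ETS factor that maintains endothelial identity, was at 8.59, 8.46 and 8.45 FPKM in the control libraries, 6.11, 5.23 and 5.40 after bleomycin and 4.68, 6.36 and 3.56 with nitrate. Control libraries were the highest, within 8.45 to 8.59 FPKM. The log2 difference of Erg was -0.53 ± 0.16 (limma adjusted p = 0.0854) after bleomycin and -0.72 ± 0.16 (limma adjusted p = 0.0369) with nitrate. Tal1, a factor of blood-forming cells and endothelium, was at 1.75, 2.50 and 2.29 FPKM in the control libraries, 1.51, 1.58 and 1.49 after bleomycin and 1.53, 2.73 and 0.864 with nitrate. In Tal1 control and nitrate libraries overlapped, and the log2 difference was -0.32 ± 0.23 (limma adjusted p = 0.409) after bleomycin and -0.28 ± 0.23 (limma adjusted p = 0.436) with nitrate.

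Of the arterial and Notch genes, only the connexin Gja4 was called. Gja4 (ENSMUSG00000050234, chr4:127311421-127314039) encodes connexin 37, a gap junction protein of arterial endothelium, and was at 10.4, 12.6 and 11.9 FPKM in the control libraries, 4.51, 5.86 and 5.28 after bleomycin and 5.21, 6.28 and 4.15 with nitrate. The nitrate range took in the whole bleomycin range, and both lay below all control libraries. Group means were 11.6 ± 1.13, 5.22 ± 0.674 and 5.21 ± 1.07 FPKM in control, bleomycin and nitrate (SD, n = 3). Gja4 fell with a log2 difference of -1.02 ± 0.15 (limma adjusted p = 0.00886) after bleomycin and -1.03 ± 0.15 (limma adjusted p = 0.0139) with nitrate against control, and for nitrate against bleomycin it was -0.01 ± 0.15 (limma adjusted p = 0.981). The bleomycin call held without any single library, at limma adjusted p of 0.00706 to 0.0431, and was lost at 0.0741 without both control 1 and bleomycin 1.

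The related connexin 40 gene Gja5 was at 2.56, 2.76 and 3.22 FPKM in the control libraries, 2.63, 3.23 and 1.41 after bleomycin and 1.30, 1.51 and 0.851 with nitrate. Its control and bleomycin libraries overlapped, and 2 of the 3 nitrate libraries lay below both groups. For Gja5 the log2 difference was -0.20 ± 0.22 (limma adjusted p = 0.584) after bleomycin and -0.80 ± 0.22 (limma adjusted p = 0.0564) with nitrate against control. Notch4, the Notch receptor of endothelium, was at 5.01, 4.33 and 4.58 FPKM in the control libraries, 4.82, 4.38 and 2.20 after bleomycin and 2.66, 2.59 and 2.01 with nitrate, and Dll4, the Notch ligand of arteries and sprouting tips, was at 2.84, 3.47 and 4.18 FPKM in the control libraries, 4.28, 3.64 and 2.34 after bleomycin and 1.39, 4.11 and 2.52 with nitrate. Bleomycin and control overlapped in both genes. The log2 difference after bleomycin was -0.28 ± 0.22 (limma adjusted p = 0.443) for Notch4 and -0.04 ± 0.29 (limma adjusted p = 0.948) for Dll4, and with nitrate against control it was -0.72 ± 0.22 (limma adjusted p = 0.0703) and -0.35 ± 0.29 (limma adjusted p = 0.425).

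The 4 lymphatic genes of the list had their lowest group means after bleomycin and varied widely with nitrate, and none of them passed the test. All 4 were lower in every bleomycin library than in every control library, which held for 17.3% of all genes, with a median log2 difference of -0.95. Limma called 0 of them, with 2 at an unadjusted p under 0.05, and limma with voom weights on the recovered reads called 7 of the 37 genes lower, none of them lymphatic. For nitrate against bleomycin all 4 estimates were above 0 (49.6% of all genes), with a median of 0.36. Of the 37 genes 27 had estimates below 0 (50.4% of all genes), and this contrast between them was not tested. Among 7 other lymphatic genes tested, 1 estimate was above 0 and 6 below 0 there, with a median of -0.56. The 1 above 0 was that of the lymphatic chemokine gene Ccl21a, at 1.65 ± 1.01 (limma adjusted p = 0.433). Which cells of whole skin carried these 7 transcripts was not tested, so they are not a measure of lymphatic vessels alone. Flt4, the lymphatic VEGF receptor VEGFR3, was at 5.86, 5.61 and 4.63 FPKM in the control libraries, 1.61, 2.76 and 2.57 after bleomycin and 3.25, 5.80 and 1.40 with nitrate. Prox1, the transcription factor that sets lymphatic identity, was at 2.17, 1.74 and 1.66 FPKM in the control libraries, 1.05, 0.853 and 0.960 after bleomycin and 1.36, 1.94 and 0.363 with nitrate. Lyve1, a hyaluronan receptor of lymphatic capillaries that some macrophages also carry, was at 10.8, 9.39 and 7.47 FPKM in the control libraries, 2.65, 4.23 and 6.66 after bleomycin and 4.27, 18.7 and 2.21 with nitrate. Mmrn1, an extracellular protein of lymphatic endothelium and platelets, was at 10.2, 9.72 and 9.46 FPKM in the control libraries, 1.64, 4.56 and 4.60 after bleomycin and 6.32, 18.8 and 2.62 with nitrate. In each gene nitrate 2 was the highest treated library, and in Lyve1 and Mmrn1 it lay above all controls, whereas nitrate 3 was the lowest of all 9 libraries in 3 of the 4 genes.

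The means of Mmrn1 were 9.80 ± 0.387, 3.60 ± 1.70 and 9.23 ± 8.45 FPKM in control, bleomycin and nitrate (SD, n = 3), so the spread of the nitrate group was nearly as large as its mean. From 292 to 2016 reads per nitrate library lay behind these values. The log2 difference of Mmrn1 was -1.31 ± 0.55 (limma adjusted p = 0.172) after bleomycin and 0.89 ± 0.55 (limma adjusted p = 0.438) for nitrate against bleomycin. Flt4 had -0.96 ± 0.34 (limma adjusted p = 0.117) after bleomycin and 0.33 ± 0.34 (limma adjusted p = 0.649) for nitrate against bleomycin. Differences of Lyve1 were -0.94 ± 0.59 (limma adjusted p = 0.342) and 0.40 ± 0.59 (limma adjusted p = 0.768), and those of Prox1 -0.55 ± 0.26 (limma adjusted p = 0.221) and 0.12 ± 0.26 (limma adjusted p = 0.855), in the same order and on the log2 scale. The mean log2(FPKM + 1) of the 4 genes was 2.87, 2.74 and 2.59 in control, 1.42, 1.92 and 2.06 after bleomycin and 2.15, 3.23 and 1.31 with nitrate. These values place 1 nitrate library above control, 1 between control and bleomycin, and 1 below bleomycin.

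Genes of venules split into selectins and a chemokine receptor. Sele (ENSMUSG00000026582, chr1:164048234-164057677), E-selectin, which catches leukocytes on inflamed endothelium, was at 7.28, 3.39 and 3.20 FPKM in the control libraries, 7.92, 7.12 and 16.0 after bleomycin and 3.50, 3.07 and 0.632 with nitrate. Selp (ENSMUSG00000026580, chr1:164115264-164150026), P-selectin, which endothelium and platelets store for rapid release, was at 7.57, 4.31 and 3.84 FPKM in the control libraries, 10.5, 10.9 and 14.4 after bleomycin and 6.77, 4.51 and 2.12 with nitrate. In both genes all bleomycin libraries were above all nitrate libraries, and for Selp also above all controls. Means of Sele were 4.62 ± 2.30, 10.3 ± 4.91 and 2.40 ± 1.55 FPKM and those of Selp 5.24 ± 2.03, 11.9 ± 2.14 and 4.47 ± 2.32 FPKM in control, bleomycin and nitrate (SD, n = 3). Neither passed the threshold. For Sele the log2 difference was 1.0 ± 0.46 (limma adjusted p = 0.204) after bleomycin and -1.79 ± 0.46 (limma adjusted p = 0.132) for nitrate against bleomycin. For Selp it was 1.09 ± 0.34 (limma adjusted p = 0.0875) after bleomycin and -1.33 ± 0.34 (limma adjusted p = 0.132) for nitrate against bleomycin. These 2 genes had the smallest adjusted p of the 37 in that comparison, where no gene of the table was called, and over the alternatives tried limma adjusted p ranged from 0.091 to 0.411 for Sele and from 0.0657 to 0.413 for Selp. Selp passed after bleomycin without nitrate 3, at a limma adjusted p of 0.0367, and with only the 2 groups compared, at 0.0386. From 35 to 187 reads per nitrate library lay behind Sele.

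Platelets also carry P-selectin. Of 10 platelet markers 2 passed the filter, Gp1bb was at 0 in all libraries, and the list summed to 23.4 to 53.1 FPKM in control, 26.5 to 64.1 after bleomycin and 12.5 to 28.1 with nitrate, and its part in the Selp values was not tested. Red cell markers summed to 178.5 to 358.7 FPKM in control, 110.7 to 1022 after bleomycin and 94.7 to 494 with nitrate, and their part in these values was not tested either.

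Ackr1, the chemokine-binding receptor by which venules are recognised, was at 30.0, 27.6 and 21.4 FPKM in the control libraries, 8.99, 10.2 and 17.0 after bleomycin and 10.7, 11.6 and 4.08 with nitrate. Unlike the selectins it was highest in control, and no treated library reached the lowest control library. The log2 difference was -1.10 ± 0.36 (limma adjusted p = 0.0997) after bleomycin and -1.58 ± 0.36 (limma adjusted p = 0.0371) with nitrate against control, where it fell. Of its exonic bases 25.7% are shared with Cadm3 on the same strand, which was at 1.84 to 21.4 FPKM, so how reads were split between the genes is uncertain. After bleomycin Ackr1 passed without nitrate 3 (limma adjusted p = 0.0296) and with only the 2 groups compared (limma adjusted p = 0.0394). The Ackr1 call with nitrate was lost without bleomycin 2, any single control library, nitrate 1 or nitrate 3.

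**Figure D3:**
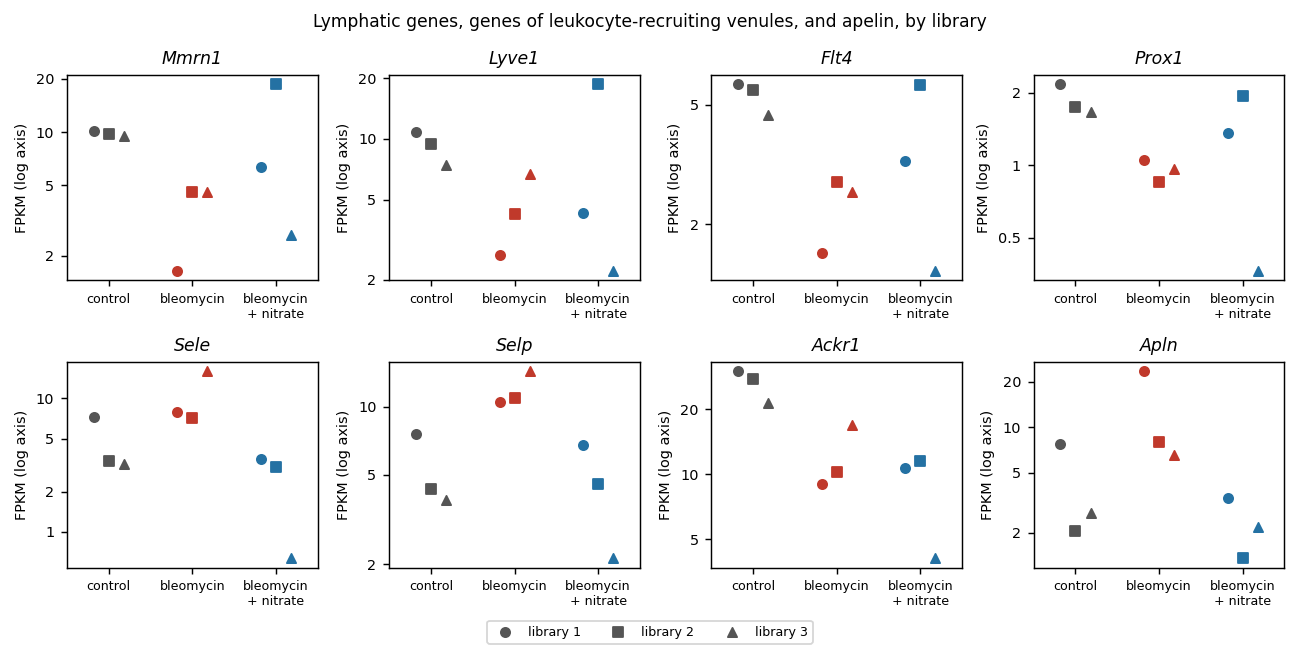
FPKM per library (vertical log axes) of the lymphatic and venular genes and Apln by group (horizontal axes), with a point for each library. Sele and Selp are highest after bleomycin, and in Mmrn1 the nitrate libraries range from 2.62 to 18.8 FPKM around a control group at 9.46 to 10.2 FPKM.

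To ask which genes moved apart from the endothelial genes at large, each library's mean log2(FPKM + 1) of 8 genes carried by most endothelium was subtracted (Pecam1, Cdh5, Tie1, Esam, Egfl7, Robo4, Clec14a and Ptprb), and the other 29 were tested on this scale. The reference mean was 4.35, 4.26 and 4.19 in control, 3.76, 3.75 and 3.64 after bleomycin and 3.46, 3.75 and 3.04 with nitrate. Because this reference was lower in treated skin, genes outside endothelium move upwards on this scale, and 28.0% of all genes were called higher and 0.977% lower after bleomycin. Of the 29 genes, 4 were higher and 3 lower after bleomycin. The relative log2 difference was 1.49 ± 0.20 (limma adjusted p = 0.000776) for Sox7, 1.64 ± 0.29 (limma adjusted p = 0.00301) for Selp, 1.55 ± 0.37 (limma adjusted p = 0.0157) for Sele and 1.91 ± 0.53 (limma adjusted p = 0.0308) for Apln. It was -1.32 ± 0.25 (limma adjusted p = 0.00436) for Cldn5, -0.76 ± 0.21 (limma adjusted p = 0.0241) for Tek and -0.86 ± 0.26 (limma adjusted p = 0.0305) for Sox17. Relative to the endothelial reference Sox7 was at -1.61, -1.60 and -1.39 in control, 0.01, 0.03 and -0.19 after bleomycin and 0.07, 0.45 and 0.41 with nitrate. Every treated library of Sox7 lay above every control library on this scale too.

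With nitrate against control 3 of the 29 were higher on this scale, where 71.4% of all genes were called higher and 0.779% lower, and 1 was lower. The relative log2 difference was 1.85 ± 0.20 (limma adjusted p = 0.000568) for Sox7, 0.59 ± 0.22 (limma adjusted p = 0.0308) for Sox18, 0.57 ± 0.22 (limma adjusted p = 0.0363) for Tal1 and -0.73 ± 0.28 (limma adjusted p = 0.0359) for Ackr1. Cldn5, Sox17 and Tek, which were lower after bleomycin, had relative differences from control with nitrate of -0.12 ± 0.25 (limma adjusted p = 0.663), -0.21 ± 0.26 (limma adjusted p = 0.463) and -0.32 ± 0.21 (limma adjusted p = 0.172). For nitrate against bleomycin limma called 0 of the 29 on this scale, where 0.0137% of all genes were higher and 0.0342% lower. The relative difference of Cldn5 there was 1.20 ± 0.25 (limma adjusted p = 0.0877), that of Sele -1.49 ± 0.37 (limma adjusted p = 0.128), that of Selp -1.03 ± 0.29 (limma adjusted p = 0.154) and that of Mmrn1 1.19 ± 0.43 (limma adjusted p = 0.233). Cldn5 passed on this scale without nitrate 1 (limma adjusted p = 0.0301) or nitrate 2 (limma adjusted p = 0.0468).

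**Figure D4:**
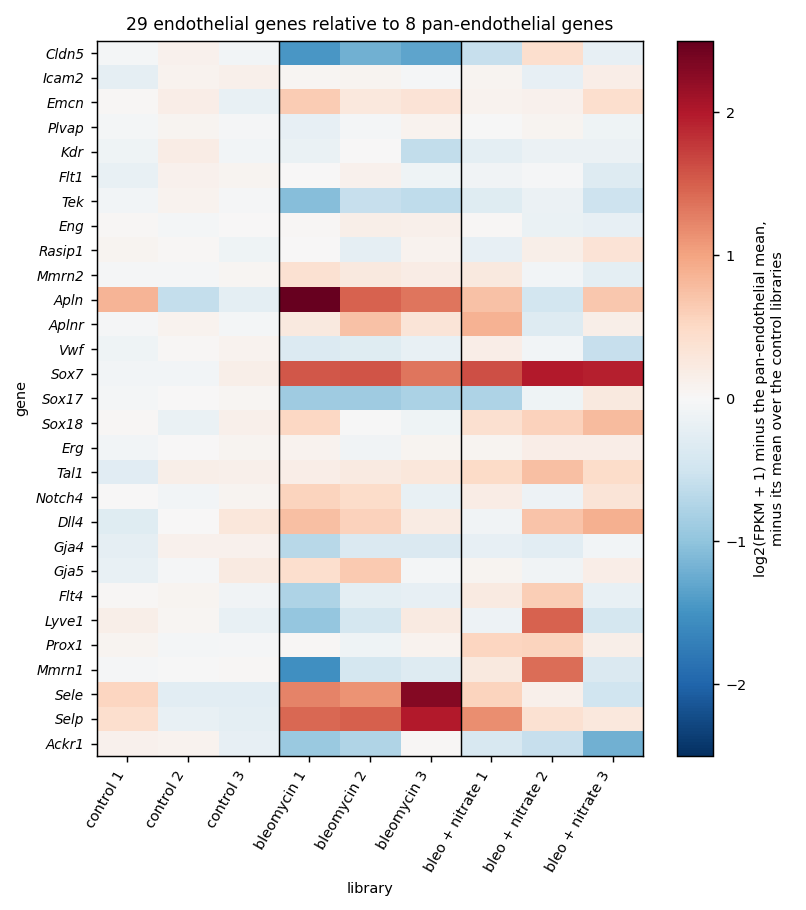
Log2(FPKM + 1) of 29 endothelial genes in each library after subtracting that library's mean over 8 pan-endothelial genes, shown as the difference from the control mean (colour) with genes in rows and libraries in columns. Sox7 is higher in all 6 treated libraries, the selectins in the bleomycin libraries, and Cldn5 is lowest in the bleomycin libraries.

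Regulatory sequence was examined for the genes whose promoter could be matched. The RefSeq table (GRCm38.p6) holds the 250 bases before the start for 24 of the 37 genes, as 30 promoters. ETS factors such as ERG bind many endothelial promoters, and the core CNGGAAG was found on either strand in 18 of the 30 promoters (60%) against 26.6% of all 32817 promoters. The SOX core AACAAT was found in 4 of the 30 (13.3%) against 9.42% of all, the GATA core AGATAA in 2 (6.67%) against 9.99%, the TATA box TATAAA in 4 (13.3%) against 12.4%, and a 10-base NF-kB motif in 6 (20.0%) against 7.25%. These are counts of letters on both strands with no test, and a match is not a shown binding site. Promoters are printed for Cldn5, Tek and Gja4, which fell after bleomycin, and for the selectins Sele and Selp, which had the smallest adjusted p between nitrate and bleomycin. Robo4, which also fell after bleomycin, holds an ETS match 43 bases before the start and is not printed, because its window reaches into the transcript that GENCODE annotates. Each printed one runs 5′ to 3′ on the gene's own strand and ends at the base before the start, with matches to these motifs in capitals. Cldn5, Gja4 and Selp hold none of the 5 motifs. Tek holds a SOX match on the opposite strand that ends 57 bases before the start, and Sele holds an ETS match 59 bases and a TATA box 43 bases before it.

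The Cldn5 promoter lies at chr16:18776597-18776846 on the + strand, that of Tek at chr4:94739039-94739288 (+), that of Gja4 at chr4:127314040-127314289 (-), that of Sele at chr1:164047984-164048233 (+) and that of Selp at chr1:164115014-164115263 (+).
Cldn5: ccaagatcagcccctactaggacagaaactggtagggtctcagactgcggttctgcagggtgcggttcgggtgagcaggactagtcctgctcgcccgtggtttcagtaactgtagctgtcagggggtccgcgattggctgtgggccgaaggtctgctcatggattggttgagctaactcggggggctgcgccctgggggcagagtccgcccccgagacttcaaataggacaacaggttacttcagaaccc
Tek: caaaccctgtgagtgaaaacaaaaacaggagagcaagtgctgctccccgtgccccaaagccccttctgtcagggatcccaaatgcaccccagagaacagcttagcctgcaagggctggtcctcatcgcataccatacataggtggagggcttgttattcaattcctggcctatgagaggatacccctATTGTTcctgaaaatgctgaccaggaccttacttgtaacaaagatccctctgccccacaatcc
Gja4: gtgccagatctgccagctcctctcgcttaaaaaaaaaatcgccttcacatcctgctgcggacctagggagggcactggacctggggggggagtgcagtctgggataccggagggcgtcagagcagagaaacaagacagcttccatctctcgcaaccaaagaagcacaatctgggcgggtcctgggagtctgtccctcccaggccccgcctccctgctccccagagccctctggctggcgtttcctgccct
Sele: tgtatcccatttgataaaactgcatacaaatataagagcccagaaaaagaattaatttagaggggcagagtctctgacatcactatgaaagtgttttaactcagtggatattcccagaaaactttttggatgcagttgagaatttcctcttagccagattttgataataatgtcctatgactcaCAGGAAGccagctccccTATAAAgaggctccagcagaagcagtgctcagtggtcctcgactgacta
Selp: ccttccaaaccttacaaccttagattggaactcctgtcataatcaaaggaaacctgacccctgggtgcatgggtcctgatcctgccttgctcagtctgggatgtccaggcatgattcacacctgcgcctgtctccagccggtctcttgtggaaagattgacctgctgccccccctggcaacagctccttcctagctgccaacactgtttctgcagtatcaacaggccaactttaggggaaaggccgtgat

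Other genes of the same pathways were read from lists of ligands, partners and targets. For these and the later lists, limma called 3.68% of all genes lower and 4.74% higher after bleomycin. With nitrate against control it called 4.89% lower and 3.63% higher. Of 6 genes of the angiopoietin and TIE pathway 1 rose after bleomycin, Svep1, an extracellular protein that binds TIE1, by 0.95 ± 0.20 (limma adjusted p = 0.0269) on the log2 scale. Of 7 VEGF ligands and co-receptors 0 were called by limma after bleomycin, with 1 at an unadjusted p under 0.05, and Nrp1, a VEGF co-receptor, fell with nitrate against control, with a log2 difference of -0.96 ± 0.21 (limma adjusted p = 0.0333). Among 11 tested genes of the ALK1 and endoglin pathway, the receptor gene Acvrl1 fell with nitrate against control, with a log2 difference of -0.75 ± 0.19 (limma adjusted p = 0.0487). Acvrl1 was the only one of the 11 with an estimate below 0 there. The other 10 were above 0 (51.9% of all genes), and the median of the list was 0.27. In the Notch list of 10 tested genes, the target Hey1 fell after bleomycin, with a log2 difference of -0.73 ± 0.19 (limma adjusted p = 0.0488). With nitrate against control, the ligand Jag1 rose by 1.01 ± 0.24 (limma adjusted p = 0.0391) and the target Hes1 by 1.04 ± 0.16 (limma adjusted p = 0.0144), both of which are also active in hair follicles and epidermis.

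A list of 8 genes of blood flow and nitric oxide was read because nitrate can be turned into nitric oxide in the body. Nos3, the nitric oxide synthase of endothelium, was at 6.82, 9.79 and 6.15 FPKM in the control libraries, 6.09, 5.67 and 3.71 after bleomycin and 2.82, 4.32 and 2.51 with nitrate. All bleomycin and all nitrate libraries were below all controls, and bleomycin and nitrate libraries overlapped. The log2 difference was -0.48 ± 0.23 (limma adjusted p = 0.228) after bleomycin, -0.55 ± 0.23 (limma adjusted p = 0.267) for nitrate against bleomycin and -1.03 ± 0.23 (limma adjusted p = 0.0363) for nitrate against control. Cav1, the caveolar protein that holds the synthase in check, fell with log2 differences of -0.97 ± 0.19 (limma adjusted p = 0.0212) after bleomycin and -1.27 ± 0.19 (limma adjusted p = 0.0144) with nitrate against control. S1pr1, a receptor that tightens endothelial junctions, fell with log2 differences of -0.90 ± 0.23 (limma adjusted p = 0.0489) and -1.22 ± 0.23 (limma adjusted p = 0.0245) in the same comparisons. In all, 2 of these 8 genes fell after bleomycin (3.68% of all genes) and 3 with nitrate against control (4.89% of all genes), and none rose. Both Cav1 and S1pr1 are also carried by other cells of skin.

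Of 8 tested leukocyte adhesion genes of the vessel wall, Vcam1, which arrests leukocytes on inflamed endothelium, rose after bleomycin by 1.08 ± 0.26 (limma adjusted p = 0.0401). Its log2 difference for nitrate against bleomycin was -1.42 ± 0.26 (limma adjusted p = 0.0915). Cd34, a sialomucin of endothelium and of fibroblasts, fell with log2 differences of -1.28 ± 0.18 (limma adjusted p = 0.00785) after bleomycin and -1.12 ± 0.18 (limma adjusted p = 0.0163) with nitrate against control. Cd99l2, a junction protein that leukocytes pass on leaving the blood, fell after bleomycin, with a log2 difference of -0.73 ± 0.12 (limma adjusted p = 0.0120). Among 13 tested endothelial transcription regulators, the hypoxia factor gene Epas1 fell with log2 differences of -0.97 ± 0.23 (limma adjusted p = 0.0397) after bleomycin and -1.04 ± 0.23 (limma adjusted p = 0.0352) with nitrate. With nitrate against control the ETS factor genes Ets1 and Fli1 also fell, with log2 differences of -0.72 ± 0.16 (limma adjusted p = 0.0349) and -0.99 ± 0.25 (limma adjusted p = 0.0487), and Foxc1 rose by 1.22 ± 0.26 (limma adjusted p = 0.0320).

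Of 7 other lymphatic genes tested, 0 were called by limma after bleomycin, with 2 at an unadjusted p under 0.05. These went opposite ways, with Pdpn higher and Ccl21a lower. In all, 3 estimates were above 0 and 4 below 0 after bleomycin, with a median of -0.12. For nitrate against bleomycin 1 (Ccl21a) was above 0 and 6 below 0, with a median of -0.56. Pdpn had log2 differences of 1.0 ± 0.28 (limma adjusted p = 0.0615) and -0.99 ± 0.28 (limma adjusted p = 0.140) in these comparisons. Fgl2 fell with nitrate against control, with a log2 difference of -1.06 ± 0.26 (limma adjusted p = 0.0422). The lymphatic chemokine gene Ccl21a was at 4.88, 39.5 and 134 FPKM in the control libraries, 1.37, 2.15 and 2.54 after bleomycin and 4.07, 8.96 and 15.3 with nitrate. Its control libraries differed among themselves by more than the treated libraries did, and its symbol belongs to more than 1 gene of a family of near-identical copies, so its level is uncertain.

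Markers of the cells around vessels and of other skin cells were read in the same way. Over all genes tested, 3.68% fell and 4.74% rose after bleomycin. With nitrate against control 4.89% fell and 3.63% rose. Of 12 pericyte and smooth muscle markers 1 fell after bleomycin, Myh11, the smooth muscle myosin, with a log2 difference of -1.69 ± 0.24 (limma adjusted p = 0.00856). With nitrate against control Myh11 and Cnn1 fell, with log2 differences of -1.87 ± 0.24 (limma adjusted p = 0.0114) and -1.15 ± 0.29 (limma adjusted p = 0.0484). Of 8 fibroblast markers 4 fell in each comparison with control, and their sum was 4727 to 6092 FPKM in control, 1647 to 2584 after bleomycin and 1584 to 2394 with nitrate. Fat cell markers summed to 1338 to 2021 FPKM in control, 868 to 999.7 after bleomycin and 245 to 871 with nitrate. Of 9 keratinocyte markers 3 rose after bleomycin, when their sum was 7988 to 11375 FPKM against 2993 to 5156 in control and 5491 to 9184 with nitrate. Macrophage markers summed to 498 to 706 FPKM in control, 1147 to 2014 after bleomycin and 415 to 928 with nitrate. Skeletal muscle markers summed to 13242 to 19217 FPKM in control, 2744 to 12120 after bleomycin and 2114 to 9670 with nitrate, where nitrate 2 was highest and nitrate 3 lowest. Of 11 immediate early genes, which cells switch on soon after a stimulus or handling, 4 rose after bleomycin and 2 with nitrate against control. Their sum was 257 to 296 FPKM in control, 1344, 393 and 993 in bleomycin 1, 2 and 3 and 366 to 384 with nitrate. These marker levels moved with the groups, and their part in the endothelial values was not tested.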

How the data were processed

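The deposited values are FPKM, 1 table for all genes and libraries, on build mm10 per the submitters' processing notes. Aligner, counting and use of strand are not given in the sources used here. RNA was column-purified and made into mRNA libraries with a SMARTer kit, per the labels' protocols. Each FPKM multiplied by its gene's length gave a whole number of equal steps (tolerance 0.01, 100% of values), so reads could be recovered, 15804050 to 18352592 per library. The authors' effective library size was 0.916 to 0.967 times these in control, 0.995 to 1.07 after bleomycin and 1.03 to 1.09 with nitrate. A smaller size gives a higher FPKM for the same reads, so this scaling moved with the groups. Scaling by the recovered reads in its place was not tested. A symbol on several genes (102 symbols) was read from the gene with the highest mean.

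The test was two-sided and ran in limma 3.58.1 (R 4.3.3) with the trend and robust options, on log2(FPKM + 1) of genes reaching 1 FPKM in 3 or more libraries. A single model held all 9 libraries and gave 3 comparisons. The script was tested on simulated data. The genes and lists described, and the other pathway lists, were chosen with earlier results of these data known. Full values are given for genes called in any comparison, for the 6 smallest p per comparison, and for small groups whose members move apart. The settings also tried were another pseudocount, filters, scalings, each library left out, 2 libraries left out together, only 2 groups, and a block. Voom weights, quantile normalization and the hair follicle covariate were chosen after seeing the data. Counting error aside, 9 libraries limit the precision.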

Additional observations from a re-analysis of the deposited data

How the results depend on the processing

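The single-gene results, 37 pairs of a gene and a comparison, kept their direction in each of the 18 or 19 alternatives that could be run for them. After bleomycin the count that fell went from 8 to 5 with the hair follicle mean as a covariate, to 4 with no filter (0 rose), to 19 with only the 2 groups compared (2 rose) and to 0 without both control 1 and bleomycin 1 (0 rose). It ranged from 2 to 16 when 1 library was left out, and the count that rose from 0 to 2. With nitrate against control the count that fell went from 16 to 0 with the covariate (0 rose), to 5 with no filter (0 rose), to 4 with only the 2 groups (0 rose) and to 0 without both libraries (0 rose). It ranged from 0 to 25 when 1 library was left out, and the count that rose from 0 to 1. For nitrate against bleomycin it stayed at 0 in every alternative. Relative to the pan-endothelial mean, leaving out both libraries gave 1 lower after bleomycin and 1 higher and 0 lower with nitrate against control. Leaving out 1 library gave 2 to 4 higher and 1 to 4 lower after bleomycin, 0 to 1 higher for nitrate against bleomycin, and 1 to 4 higher and 0 to 1 lower for nitrate against control. The share of all genes called on that scale then ran from 8.19% without bleomycin 3 to 56.7% without nitrate 3 after bleomycin, from 0% to 10.2% (without nitrate 2) for nitrate against bleomycin, and from 57.2% to 78.8% for nitrate against control. The cause of these changes was not tested, beyond the smaller number of libraries or the larger number of genes tested that some alternatives bring. The whole table moved as well: without both libraries 0.680% of all genes were called after bleomycin, and with the covariate 0.0615% with nitrate against control.

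Replicate numbers are shared by the groups, but same-numbered libraries did not deviate together in every pair (r of 0.517, -0.0445 and 0.434 between control and bleomycin, -0.205, -0.391 and 0.344 between bleomycin and nitrate, and 0.0131, 0.199 and 0.443 between control and nitrate), and not every library correlated best with its own number, so the numbers were not taken as a pairing. With a replicate block 2 genes rose after bleomycin in place of 1, as Apln passed (limma adjusted p = 0.0244), and on the relative scale 1 gene was higher and 1 lower for nitrate against bleomycin in place of 0. The calls of Esam (0.0736) and Icam2 (0.0648) after bleomycin and of Rasip1 (0.0615), Erg (0.0508) and Ackr1 (0.0605) with nitrate against control did not pass under the block. The block took the other counts no further than 1.5 times. A voom fit with TMM factors was planned and not run, since the table holds FPKM, and the authors' effective library sizes were used in its place. Genes near 1 FPKM, such as Prox1, and those with few reads, such as Sele with nitrate, are limited by depth.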
